A study of Mus musculus with 10 samples.

Results

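Heme is the iron-bearing ring carried by the cytochromes of the respiratory chain, and brown adipose tissue, which burns fuel in its mitochondria to make heat, is rich in it. Synthesis starts in the mitochondrion, where δ-aminolevulinate synthase joins glycine to succinyl-CoA, passes through the cytosol, and ends back in the mitochondrion, where ferrochelatase inserts iron. Heme oxygenase opens the ring again, releasing iron, carbon monoxide and biliverdin, which biliverdin reductase turns into bilirubin. The 9 genes described here are Alas1 and Alas2 (the housekeeping and the erythroid δ-aminolevulinate synthase), Alad, Uros, Urod, Cpox, Ppox and Fech (later enzymes of synthesis), and Hmox1 (the inducible heme oxygenase). They were picked by gene symbol, with earlier results of these data known, and are 9 of the 20295 gene models in the deposited count table.

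RNA was measured in interscapular brown adipose tissue of 8-week-old male C57BL/6JBomTac mice, all housed singly. In the cold group, 5 mice were kept at 4 °C for 3 days, and in the control group 5 mice were kept at 22 °C. Each mouse gave 1 poly(A)-selected library. The libraries held 5676963 to 6923932 counted reads in the cold group and 4446163 to 5776905 in the control group. Levels are CPM, read counts scaled to a common library size after adjusting for library composition, and folds are cold over control. The labelled tissue was checked with Ucp1, the uncoupling protein that defines brown adipocytes, which lay at 17200 to 19500 CPM in cold and 8080 to 9960 CPM in control libraries. Of the 8 brown adipocyte markers 2 rose and 2 fell (50%), and of the 8 endothelial markers 2 rose and 0 fell (25%). By the same test, given below, 19.3% of all tested genes rose or fell. Cdh5, the most abundant endothelial marker over all 10 libraries, lay at 187 to 226 CPM in cold and 148 to 222 CPM in control libraries. None of the 8 neutrophil markers had enough reads to be tested, and S100a9, the most abundant, stayed at or below 1.43 CPM in cold and 1.81 CPM in control libraries. Because these are bulk samples, fewer cells of a type and less RNA per cell cannot be told apart.

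After cold exposure the heme oxygenases were higher, the biliverdin reductases lower, and most enzymes of synthesis were not distinguishable from control tissue. Of the 9 genes, Hmox1 and Alas2 rose, Ppox fell, and 6 did not pass the threshold (edgeR's quasi-likelihood test, Benjamini-Hochberg adjusted p under 0.05 over 11229 tested genes). Across all tested genes 19.3% passed, 10.2% rising and 9.14% falling, beside 3 of these 9 genes (33.3%). The groups did not overlap for Hmox1 and Ppox, against 14% of all tested genes. The median log2 fold change of the 9 genes was 0.04, and that of all tested genes was -0.02.

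**Figure D1:**
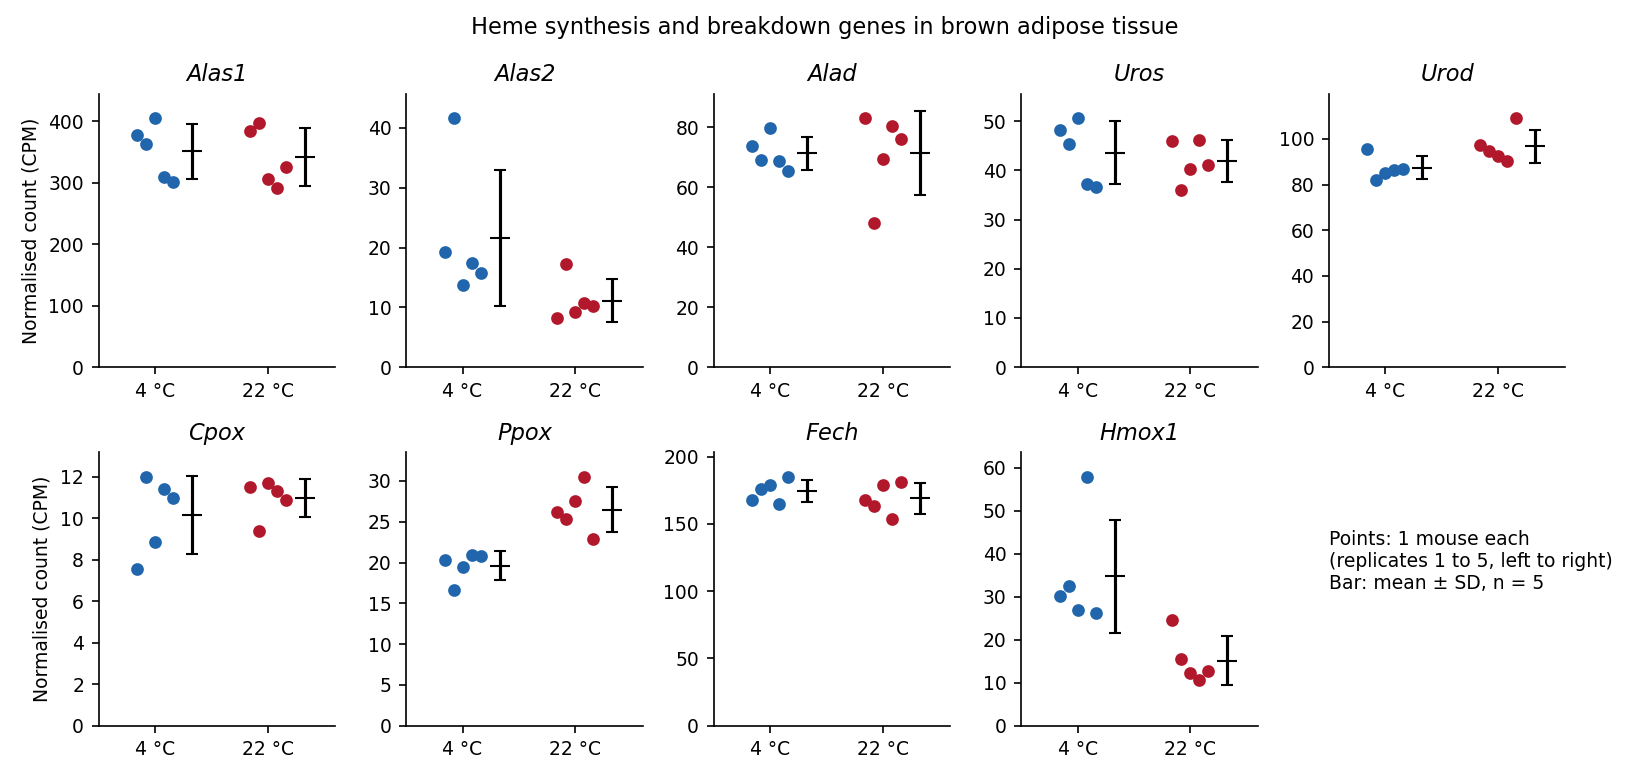
Normalised counts (CPM, y axes from 0) of the 9 genes in each of 5 cold (4 °C, blue) and 5 control (22 °C, red) libraries, with the mean ± SD (n = 5) beside the points. Hmox1 and Ppox separate the groups completely, replicate 2 stands high for Alas2 in each group, and the groups overlap for the other genes.

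Sequences are shown for the 2 synthases, because enzymes for the same reaction are encoded by a housekeeping and an erythroid gene with different control regions. All are from mouse GRCm38, with positions in that build, and capitals mark the motif or loop. The stretch upstream of the first annotated Alas2 transcript, on chrX:150547167-150547374 (plus strand), holds 1 match to the GATA motif (AGATAA or TGATAA on either strand), the binding motif of the erythroid factor GATA1.
Alas2 upstream: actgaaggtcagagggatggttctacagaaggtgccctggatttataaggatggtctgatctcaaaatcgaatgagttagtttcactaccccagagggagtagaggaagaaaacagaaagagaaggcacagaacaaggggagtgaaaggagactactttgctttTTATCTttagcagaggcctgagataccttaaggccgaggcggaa

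The Alas2 5′ untranslated region also carries an iron-responsive element, the hairpin through which iron regulatory proteins block translation when iron is scarce; its loop is in capitals below, on chrX:150547456-150547485 (plus strand). Alas1 has instead a match to the core motif of NRF1 (GCGCATGC on either strand), a factor of nuclear genes for mitochondrial proteins, shown from chr9:106247907-106247936 (minus strand), where the capitals span overlapping matches on both strands. It lies within an exon of an annotated Alas1 transcript.
Alas2 iron-responsive element: ctttggttcgtcctCAGTGCagggcaacag
Alas1 NRF1 motif: ccgcacccaagGCGCATGCGCggcggtcac
Over the 32851 promoter windows of RefSeq, each from 250 bases before to 50 after a start site, the NRF1 core occurred in 2.71% and the GATA motif in 18.6%. Of the 10 windows of these genes, the NRF1 core was in 2, both of Alas1, and the GATA motif in 3, of Alas2, Cpox and Uros. These matches describe letters and do not show binding.

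Alas1, the rate-limiting enzyme of synthesis outside red cells, did not pass the test. Its levels were 378, 364, 405, 309 and 301 CPM in cold libraries, against 385, 398, 307, 292 and 326 CPM in control libraries. The ranges overlapped almost fully. It averaged 351 ± 44.9 CPM in cold and 341 ± 47.1 CPM in control tissue (SD, n = 5 each). The log2 difference was 0.04, with a 95% interval of -0.20 to 0.28 (adjusted p = 0.826 with edgeR). Alas1 (chromosome 9, 106135786 to 106150285, minus strand, mm9) was the most abundant of the 9 transcripts.

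Alas2 was higher in cold tissue, with a call close to the threshold. Its levels were 19.2, 41.6, 13.8, 17.4 and 15.7 CPM in cold libraries, against 8.14, 17.3, 9.19, 10.8 and 10.3 CPM in control libraries, from 84 to 268 reads in cold and 36 to 88 reads in control libraries. In each group replicate 2 stood well above the rest, and control replicate 2 lay inside the cold range. The means were 21.6 ± 11.4 CPM in cold and 11.1 ± 3.57 CPM in control tissue (SD, n = 5 each), a 1.93-fold difference (log2 0.95, SE 0.30, adjusted p = 0.0449 with edgeR). Leaving out 1 library at a time gave log2 values of 0.56 to 1.16 and adjusted p of 0.0173 to 0.0925, and the call was lost without cold replicate 1, 2 or 4 or control replicate 1, 3, 4 or 5. Without cold replicate 2 the log2 fold change was 0.56 (adjusted p = 0.0903), and without any other library it was 0.85 or more. Alas2 lies on chromosome X (146981960 to 147005165, plus strand, mm9).

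Blood carries erythroid transcripts, so the other erythroid genes were set beside Alas2. Of 20 erythroid markers, 16 were in the count table, none had enough reads to be tested, and 1 was at 0 in every library. The 4 globin genes gave 2, 19, 8, 9 and 7 reads in cold libraries and 2, 7, 0, 4 and 5 in control libraries. The table counted these genes over only 3, 7, 1 and 9 bases, so their counts say little about how much globin RNA was present. The 12 other erythroid markers summed to 1.55, 4.35, 1.71, 2.38 and 1.87 CPM in cold libraries, against 0.679, 2.75, 0.919, 1.85 and 1.44 CPM in control libraries. Replicate 2 was the highest of each group here as well, as it was for Alas2.

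The ratio of Alas2 to globin reads gives no usable test, because its denominator was 0 to 19 reads a library. The 12 other erythroid markers, chosen as a denominator after the data were seen, held 3 to 28 reads a library. With 0.5 CPM added to the marker sum only, the log2 ratio of Alas2 to it was 2.86 ± 0.29 in cold and 2.50 ± 0.24 in control libraries (SD, n = 5 each). The difference was 0.36 (exact two-sided permutation test, p = 0.0714). The smallest p this design allows is 0.00794. With these markers as a covariate in edgeR the Alas2 log2 fold change was 0.45 (adjusted p = 0.12). The sum of skeletal muscle markers was highest in cold replicates 2 and 3, at 408 and 289 CPM, and in control replicate 4, at 98.7 CPM. Cold replicate 2 had the highest Alas2 of its group and cold replicate 3 the lowest, and the part of muscle in the result was not tested. Myh4, a muscle myosin and the most abundant of them over all 10 libraries, lay at 0.187 to 90.3 CPM in cold and 0 to 18.7 CPM in control libraries.

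**Figure D2:**
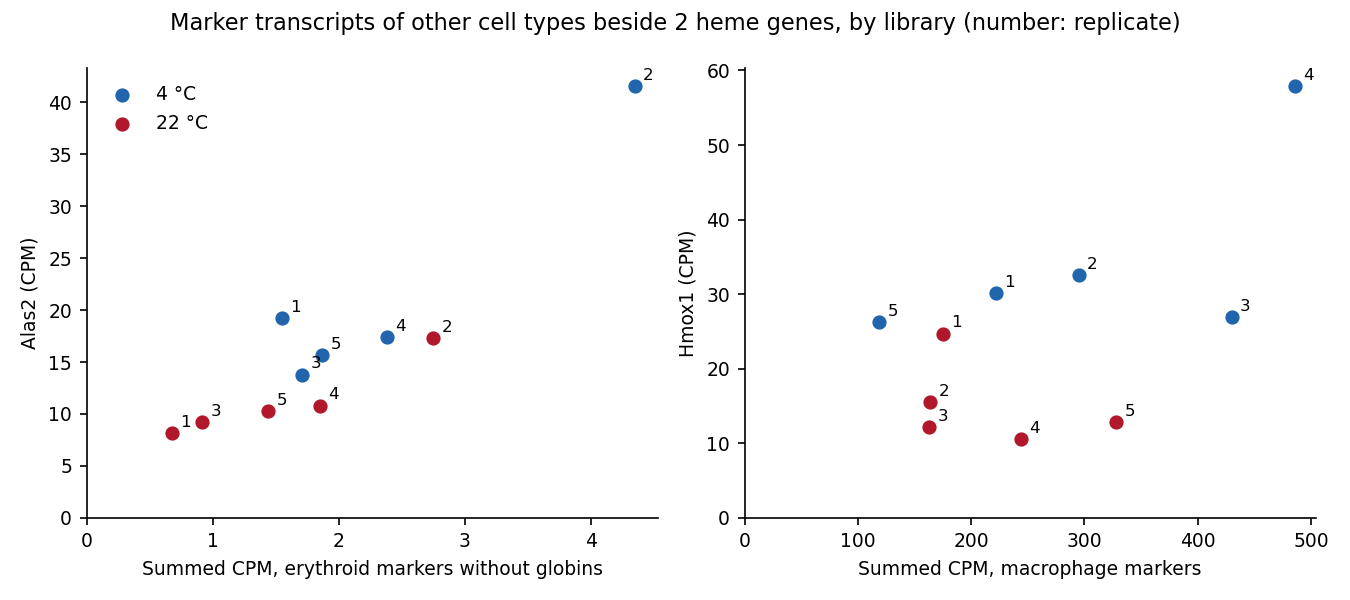
Alas2 (left) plotted against the summed erythroid markers without globins, and Hmox1 (right) against the summed macrophage markers, in CPM, for 5 cold and 5 control libraries, each point labelled with its replicate number. Replicate 2 is highest on both axes of the left panel in each group, and cold replicate 4 is highest on both axes of the right panel. Cold replicate 3, next on the macrophage axis, lies close in Hmox1 to cold replicate 5, the lowest on that axis.

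Between the synthases and ferrochelatase, Alad, Uros, Urod and Cpox did not pass the threshold. Alad, which condenses aminolevulinate to porphobilinogen, averaged 71.4 ± 5.51 CPM in cold and 71.5 ± 14.0 CPM in control tissue (SD, n = 5 each), with a log2 interval of -0.28 to 0.28. Uros, which closes the ring, averaged 43.6 ± 6.37 and 41.9 ± 4.21 CPM in cold and control tissue, and its interval was -0.19 to 0.30. Urod, which removes carboxyl groups from the ring, averaged 87.3 ± 5.04 CPM in cold and 96.9 ± 7.37 CPM in control tissue (log2 -0.15, SE 0.08, adjusted p = 0.193). Cpox, which carries out the next oxidation, was the least abundant per length and averaged 10.2 ± 1.88 and 11 ± 0.922 CPM in cold and control tissue, with a wide interval of -0.44 to 0.22 from 44 to 77 reads in cold and 48 to 67 reads in control libraries. In mm9, Alad lies on chromosome 4 (62167018 to 62181097, minus strand), Urod on chromosome 4 (116662822 to 116666980, minus strand), Uros on chromosome 7 (140878038 to 140900978, minus strand) and Cpox on chromosome 16 (58670321 to 58680502, plus strand).

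Ppox, the mitochondrial enzyme that oxidises protoporphyrinogen just before iron is inserted, fell. Its levels were 20.3, 16.6, 19.4, 20.9 and 20.8 CPM in cold libraries, against 26.2, 25.3, 27.6, 30.5 and 22.9 CPM in control libraries. Every cold library lay below every control library. The means were 19.6 ± 1.77 CPM in cold and 26.5 ± 2.80 CPM in control tissue (SD, n = 5 each), so cold tissue held 0.738 times the control level (log2 -0.44, SE 0.11, adjusted p = 0.0138 with edgeR). The call held in all 10 fits that left out 1 library, with log2 values of -0.49 to -0.38. It was lost with cold replicates 3 and 4 both left out (log2 -0.47, adjusted p = 0.0681). Its gene lies on chromosome 1 (173207123 to 173211317, minus strand, mm9).

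Fech, which inserts iron into the finished ring, had overlapping ranges at both temperatures. Its levels were 168, 176, 179, 165 and 185 CPM in cold libraries, against 168, 163, 179, 154 and 181 CPM in control libraries. The log2 fold change was 0.05 (SE 0.07, adjusted p = 0.688), and the 95% interval of -0.11 to 0.20 was the narrowest of the 9 genes. Fech lies on chromosome 18 (64616204 to 64648720, minus strand, mm9).

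Hmox1 rose the most of the 9 genes. Its levels were 30.1, 32.5, 26.9, 57.9 and 26.2 CPM in cold libraries, against 24.7, 15.5, 12.2, 10.6 and 12.8 CPM in control libraries. Every cold library exceeded every control library, and cold replicate 4 stood far above its group. The means were 34.7 ± 13.2 CPM in cold and 15.1 ± 5.60 CPM in control tissue (SD, n = 5 each), a 2.31-fold increase (log2 1.21, SE 0.26, adjusted p = 0.00661). The call held in all 10 fits that left out 1 library (log2 0.94 to 1.44, adjusted p 0.00182 to 0.0214). Hmox1 lies on chromosome 8 (77617517 to 77624492, plus strand, mm9).

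Macrophages break down heme with HMOX1, so macrophage markers were set beside it. The 14 macrophage markers in the table summed to 222, 295, 430, 486 and 119 CPM in cold libraries, against 175, 164, 163, 244 and 328 CPM in control libraries, and the groups overlapped. Lyz2, the most abundant, lay at 39.8 to 250 CPM in cold and 42.7 to 142 CPM in control libraries. Of 12 macrophage markers tested, Cd68 (a lysosomal protein of macrophages) rose by log2 2.12 (adjusted p = 0.00673), C1qa (a complement component) fell by 0.58 (adjusted p = 0.0213), and 10 did not pass; Cd68 and C1qa are named after their values were seen. With the macrophage sum as a covariate, the Hmox1 log2 fold change was 1.07 (adjusted p = 0.0214). With the 2 cold libraries of highest macrophage sum, replicates 3 and 4, both left out, it was 0.98 (adjusted p = 0.0329).

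The rest of the breakdown arm moved in opposite directions. Hmox2, the constitutive heme oxygenase, rose: it lay at 102, 87.2, 105, 96.4 and 87.2 CPM in cold libraries, against 81.2, 78.8, 63.2, 58.6 and 70.2 CPM in control libraries (log2 0.44, SE 0.10, adjusted p = 0.0102). Both biliverdin reductases fell. Blvra, which reduces the biliverdin made by heme oxygenase, lay at 38.1, 28.6, 31.8, 33.5 and 29.7 CPM in cold libraries, against 79.9, 62.8, 47.1, 64.8 and 85.7 CPM in control libraries (log2 -1.07, SE 0.15, adjusted p = 0.000362). Blvrb, a flavin and biliverdin reductase, averaged 21.4 ± 1.05 CPM in cold and 56.4 ± 5.03 CPM in control tissue (SD, n = 5 each; log2 -1.40, SE 0.09, adjusted p = 1.67e-06). All 3 of these genes passed, beside 19.3% of all tested genes. For none of the 3 did the groups overlap, and the same held for 14% of all tested genes. With cold replicates 3 and 4 both left out, Hmox2 lost its call (adjusted p = 0.0921) and both reductases still passed.

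**Figure D3:**
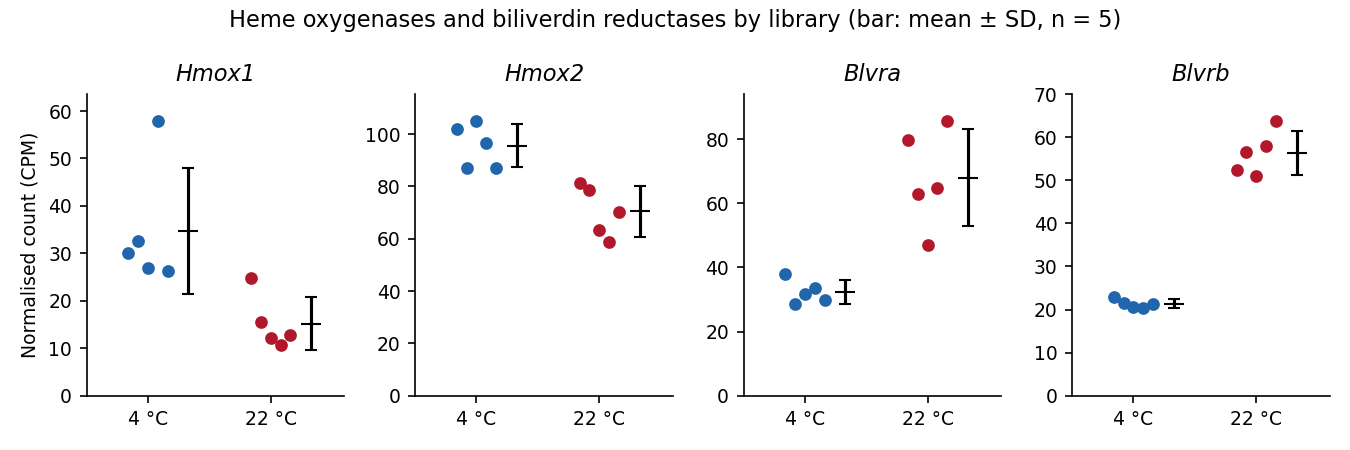
Normalised counts (CPM, y axes from 0) of the 2 heme oxygenases and the 2 biliverdin reductases in 5 cold (4 °C) and 5 control (22 °C) libraries, with mean ± SD (n = 5). Both oxygenases are higher and both reductases lower in every cold library than in any control library.

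Per length, the share of Hmox1 in the 2 heme oxygenase transcripts was 16 ± 4.84% in cold libraries, against 10.1 ± 2.16% in control libraries (SD, n = 5 each). The groups overlapped, at 12.1 to 24.2% in cold and 8.80 to 13.9% in control libraries, and the share was not tested. Alas2 made up 7.76 ± 3.48% of the 2 synthase transcripts per length in cold libraries, against 4.31 ± 1.05% in control libraries. Alas1 therefore remained the main synthase transcript in every library.

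Per kilobase of counted sequence, the 9 transcripts spanned a wide range of the tested genes. In control tissue the order of level was Alas1 (126 ± 17.4 CPM per kb), Urod (80.8 ± 6.15), Fech (58.3 ± 3.86), Uros (22.4 ± 2.25), Alad (15.8 ± 3.10), Ppox (14.6 ± 1.54), Hmox1 (9.61 ± 3.55), Alas2 (5.71 ± 1.83) and Cpox (3.45 ± 0.29; SD, n = 5 each). Alad and Ppox, Ppox and Hmox1, and Hmox1 and Alas2 overlapped and were not separated as neighbours. In cold tissue the means placed Hmox1 (22.0 ± 8.37 CPM per kb) above Alad (15.7 ± 1.22) and Alas2 (11.1 ± 5.84) beside Ppox (10.8 ± 0.969). These neighbours were not separated: Hmox1 ranged over 16.6 to 36.7 and Alad over 14.5 to 17.6, and Alas2 over 7.09 to 21.4 and Ppox over 9.13 to 11.5 CPM per kb. Alas1 stood at the 95.1 percentile of all tested genes and Cpox at the 24.9 percentile.

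**Figure D4:**
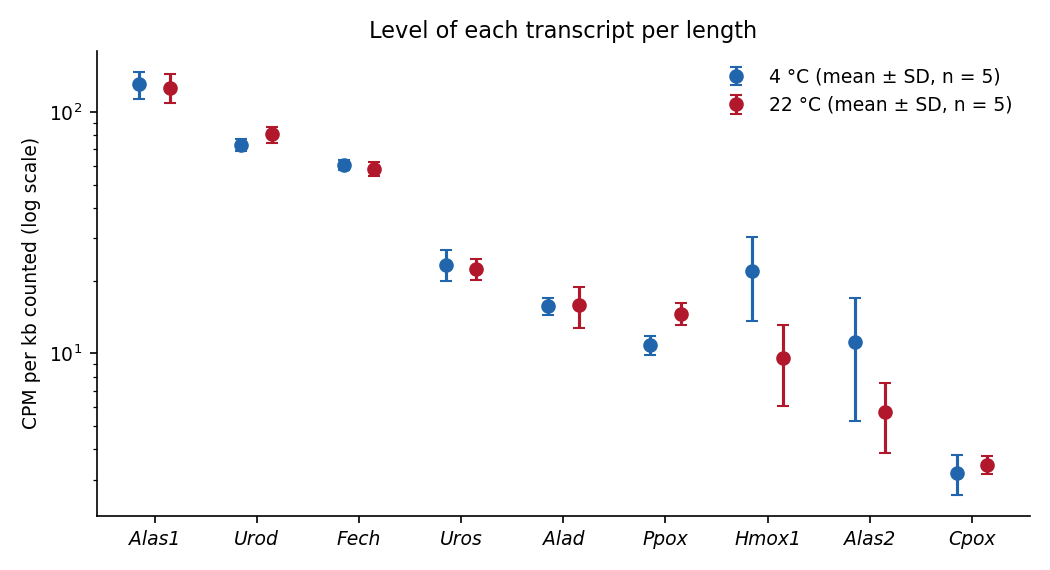
Level per length (CPM per kb of counted sequence, log axis) of the 9 transcripts in cold and control libraries, in the order of their level in control tissue. Alas1 is the highest and Cpox the lowest in both groups, and the mean of Hmox1 lies above those of Ppox and Alad in the cold group.

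In the list of substrate supply, carriers and partners of synthesis, 1 of 18 genes rose and 1 fell, 11.1% beside 19.3% of all tested genes, and the median log2 fold change was -0.08. Slc25a28, a mitochondrial iron importer, rose to 65.2 ± 9.54 CPM in cold tissue, against 42.8 ± 4.50 CPM in control tissue (log2 0.61, adjusted p = 0.00301). Abcb10, a mitochondrial transporter that supports heme synthesis, fell by 0.35 on the log2 scale (adjusted p = 0.022). The carriers Slc25a37 (iron) and Slc25a38 (glycine), needed for heme synthesis in red cell precursors, had log2 fold changes of 0.17 and -0.13 and did not pass. Without cold replicate 2, 3 or 4 no gene of this list fell, without cold replicate 5 or control replicate 1 or 4, 2 fell, and without control replicate 1, 2 rose.

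Of 10 genes of heme transport and binding, 1 rose and 3 fell, 40% beside 19.3% of all tested genes, with a median log2 fold change of -0.11. Hpx, hemopexin, which binds free heme in plasma, averaged 3.14 ± 0.631 CPM in cold tissue, against 0.817 ± 0.79 CPM in control tissue (log2 1.92, adjusted p = 0.0164), from 11 to 24 reads in cold and 0 to 10 reads in control libraries. Without control replicate 2 the Hpx log2 fold change was 2.56, and with cold replicates 3 and 4 both left out it was 1.82 and lost its call (adjusted p = 0.106). Hebp1, a heme-binding protein, averaged 16.2 ± 3.21 CPM in cold and 28.3 ± 3.60 CPM in control tissue (log2 -0.81, adjusted p = 0.00217). Pgrmc2, a heme chaperone, fell by 0.33 (adjusted p = 0.0193), and Slc48a1, a heme exporter of lysosomes, fell by 0.28 (adjusted p = 0.0412). The Slc48a1 call did not survive 7 of 10 single-library omissions. Without cold replicate 2, or with a replicate block, 1 gene of this list fell. With control replicate 2 and cold replicate 5 both left out, 3 rose and 3 fell.

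Heme a and cytochrome c maturation gave 2 rising genes of 3 (median log2 fold change 0.37), beside 10.2% of all tested genes rising. Cox10, which acts at 1 step on the path to heme a, averaged 104 ± 3.38 CPM in cold and 75.6 ± 15.8 CPM in control tissue (log2 0.47, adjusted p = 0.0194). Hccs, which attaches heme to cytochrome c, averaged 121 ± 5.12 and 93.7 ± 13.7 CPM in cold and control tissue (log2 0.37, adjusted p = 0.0183). Without cold replicate 3 or control replicate 4, 1 gene rose, and with cold replicates 3 and 4 both left out, 0 rose.

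Of 14 hemoproteins, 1 rose and 2 fell, a share of 21.4% beside 19.3% of all tested genes. Mb, myoglobin, averaged 89.9 ± 27.5 CPM in cold and 6.48 ± 4.00 CPM in control tissue (log2 3.77, adjusted p = 1.38e-05). Skeletal muscle also expresses Mb, and its marker sum was 7.48 to 408 CPM in cold and 6.66 to 98.7 CPM in control libraries. Cold replicate 2 had the highest muscle sum and the highest Mb (119 CPM), cold replicate 5 had the lowest muscle sum of its group and 106 CPM of Mb, and the part of muscle in the result was not tested. Cyb5a, a cytochrome that donates electrons, averaged 111 ± 19.8 and 215 ± 60.8 CPM in cold and control tissue (log2 -0.96, adjusted p = 0.00244), and Nos3, a nitric oxide synthase of vessels, fell by 0.50 (adjusted p = 0.0168). Without cold replicate 5, 2 hemoproteins rose.

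Among 15 regulators of heme genes, 1 rose and 2 fell, 20% beside 19.3% of all tested genes. Nr1d1, a heme-sensing nuclear receptor of the clock, averaged 103 ± 16.1 CPM in cold and 144 ± 17.3 CPM in control tissue (log2 -0.49, adjusted p = 0.0118). Aco1, an iron regulatory protein, fell by 0.35 (adjusted p = 0.0182), and Hif1a, a hypoxia factor, rose by 0.39 (adjusted p = 0.0196). Without cold replicate 1 or control replicate 4 none rose, without control replicate 2, 2 rose, without cold replicate 4, 1 fell, and without cold replicate 5, 4 fell. Ppargc1a, the co-activator of mitochondrial genes, lay at 194 to 343 CPM in cold and 81.5 to 993 CPM in control libraries, and control replicate 2 carried the 993 CPM (log2 -0.20, adjusted p = 0.836). Without it the log2 fold change was 1.02 (adjusted p = 0.0159). Nrf1, the factor of the motif found at Alas1, had a log2 fold change of 0.29 (adjusted p = 0.112), and Bach1 and Nfe2l2, which repress and activate Hmox1, had -0.09 and -0.08; none of the 3 passed.

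The NRF2 and BACH1 targets, a set of antioxidant and iron genes known to include Hmox1 (which was not counted in the 11), gave 3 rising and 1 falling gene of 11, 36.4% beside 19.3% of all tested genes, with a median log2 fold change of -0.05. Ftl1, the ferritin light chain that stores iron, averaged 600.0 ± 70.6 CPM in cold and 340.0 ± 32.9 CPM in control tissue (log2 0.82, adjusted p = 0.000116). Gclc, the rate-limiting enzyme of glutathione synthesis, fell by 0.73 (adjusted p = 0.00324). Osgin1 (log2 1.53, adjusted p = 0.0306) and Txnrd1 (log2 0.36, adjusted p = 0.044) rose, but lost the call in 7 and 9 of the 10 fits that left out 1 library. Without cold replicate 1, 2 or 3 or control replicate 2, 3, 4 or 5, 1 gene of this list rose, and without cold replicate 5 or control replicate 2, 2 fell.

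**Figure D5:**
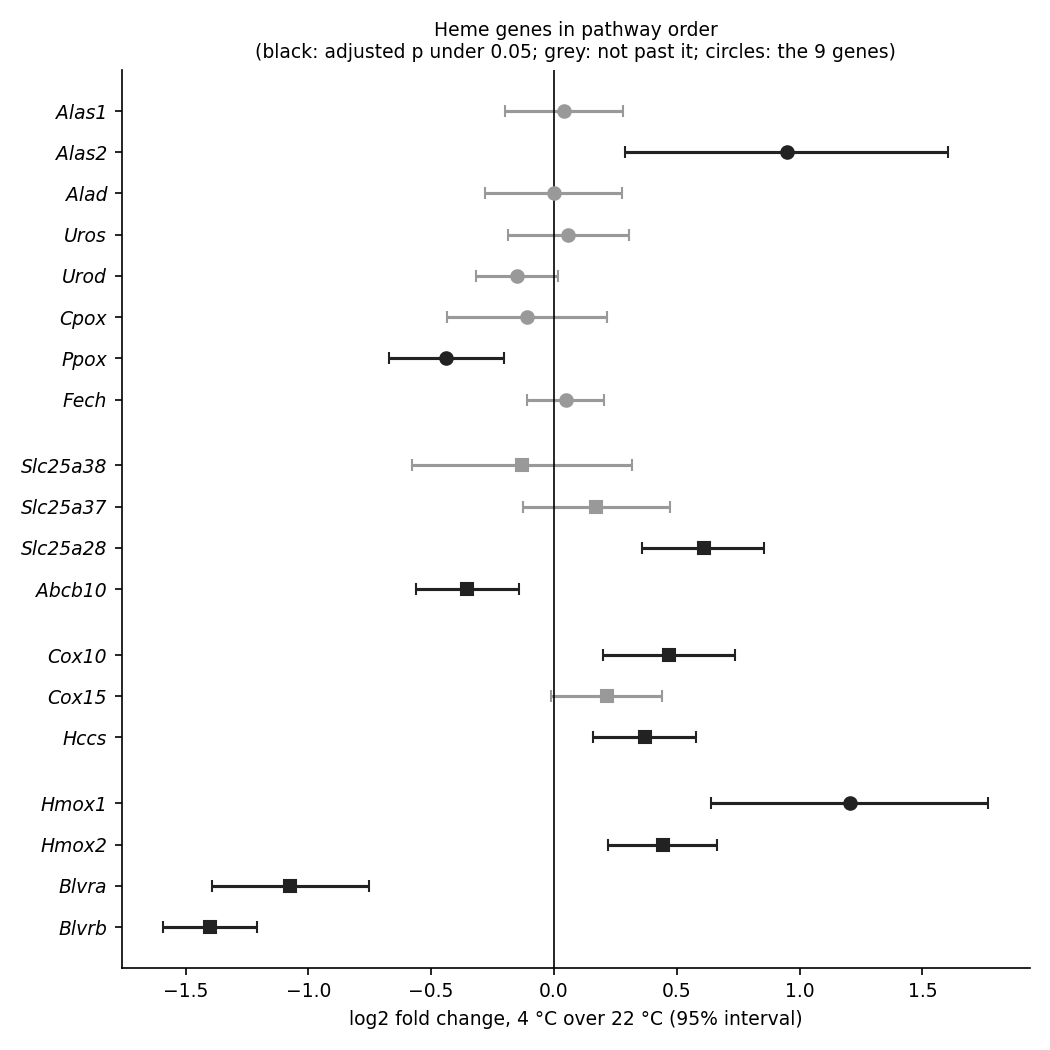
Log2 fold change (cold over control, x axis) with its 95% interval for heme genes in pathway order, the 9 genes as circles and adjusted p under 0.05 in black. The oxygenases lie right of 0, the reductases left of it, and the intervals of the enzymes from Alad to Cpox include 0.

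Genes whose log2 CPM followed the 3 genes of interest most closely across the 10 libraries, by Pearson correlation, were Sowahc (r 0.91), Trim34b (r 0.91), Ccdc125 (r 0.90), Bmpr1a (r 0.89) and Dusp10 (r 0.88) for Alas1. For Alas2 they were Tamm41 (r 0.94), Rgs4 (r 0.91), Vsig10 (r 0.90), Nlgn2 (r 0.90) and Nrm (r 0.90). For Hmox1 they were AK129341 (r 0.96), Bod1l (r 0.96), Slc25a46 (r 0.94), Plekhm3 (r 0.94) and Ero1l (r 0.93). All points share library and temperature, and no test was made.

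In the authors' deposited table, 8 of the 9 genes were compared here, not Uros. In the authors' deposited table the adjusted p was 3.71e-05 for Hmox1, 0.00975 for Alas2 and 0.0159 for Ppox, and none of the other 5 passed. The largest gap between a log2 fold change there and in the fit reported above was 0.009.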

How the data were processed

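Per the labels, poly(A) libraries were made from 4 µg total RNA per mouse. The deposited count table holds whole reads per gene model (20295, mm9 coordinates), per the file headers. Reads were handled with STAR and edgeR on mm9, per the submitters' processing notes. The authors' deposited comparison table lists, for each gene, log2 values (difference and level) with the p-value and its adjusted form.

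From the counts, edgeR 4.0.16 (quasi-likelihood, TMM scaling, filter on low counts) tested 11229 genes with Benjamini-Hochberg adjustment over all of them. The labels do not pair the mice, and same-numbered libraries did not deviate together (correlations -0.26 to 0.19), so the main fit has no block. Alternatives were RLE scaling, no scaling, no filter, DESeq2 1.42.0, limma-voom (limma 3.58.1), a replicate block, each library left out, and marker covariates. Intervals are 95% from the fit. Sequences came from RefSeq and the GRCm38 annotation, by symbol; 7 of the 9 genes had a promoter window. The genes named are the 9, a fixed set of partners and regulators whatever their result (1 of them is not reported here), up to 4 further genes past the threshold in each pathway list by smallest p, the globins, the most abundant marker of each other list, and the 5 genes most correlated with Alas1, Alas2 and Hmox1. The members and lists were chosen with earlier results of these data known. P-values measure spread between single mice, 1 library each.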

Additional observations from a re-analysis of the deposited data

Results flagged for a closer look

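In groups of 5 libraries, a library was marked where its gap to the nearest other exceeded 0.71 of the group's range. Of 82 groups of values, 9 had such a library, and among the 9 genes it was 3 of 18 groups. A chance rate of about 1 in 20 would hold for independent, normally distributed values. These are untransformed CPM from shared libraries, so the counts were not tested against that rate.

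Alas2 lay at 41.6 CPM in cold replicate 2, against 13.8 to 19.2 CPM in the other cold libraries. It lay at 17.3 CPM in control replicate 2, against 8.14 to 10.8 CPM in the other control libraries. Erythroid markers without globins were also highest in both of these libraries (4.35 CPM in cold and 2.75 CPM in control tissue).

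Hmox1 lay at 57.9 CPM in cold replicate 4, against 26.2 to 32.5 CPM in the other cold libraries. The macrophage sum of cold replicate 4 was the highest of the series at 486 CPM. Hmox1 did not follow that sum in every library. Cold replicate 3, with a sum of 430 CPM, had 26.9 CPM of Hmox1, and cold replicate 5, with 119 CPM, had 26.2 CPM. Without cold replicate 4 the Hmox1 log2 fold change was 0.94 (adjusted p = 0.0128 with edgeR).

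Ppargc1a lay at 993 CPM in control replicate 2, against 81.5 to 215 CPM. Mb lay at 13.5 CPM in control replicate 2, against 4.14 to 5.90 CPM. Nfe2l2 lay at 148 CPM in cold replicate 5, against 94.5 to 109 CPM. Cox10 lay low at 98.3 CPM in cold replicate 2, against 105 to 106 CPM. Osgin1 lay at 2.49 CPM in control replicate 1, against 0.505 to 0.919 CPM. The skeletal muscle marker sum was 98.7 CPM in control replicate 4, against 6.66 to 17.6 CPM.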

How the results depend on the processing

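Hmox1 stayed past the threshold in all 11 alternatives other than single left-out libraries (log2 0.98 to 1.30), and the 6 genes that did not pass stayed so in them. The count of rising genes among the 9 was 1, not 2, with limma-voom, with the globin, erythroid and macrophage covariates, and 1 to 2 with 1 library left out. The count of falling genes was 0, not 1, with the globin covariate and with cold replicates 3 and 4 both left out, and 1 to 1 with 1 library left out. Alas2 had log2 fold changes of 0.86 (limma-voom, adjusted p = 0.0698), 0.58 (globin covariate, 0.163), 0.45 (erythroid covariate, 0.12) and 0.96 (macrophage covariate, 0.073), and 0.56 to 1.16 with 1 library left out. Ppox had -0.37 (globin covariate, adjusted p = 0.0602) and -0.47 (cold replicates 3 and 4 left out, 0.0681). The causes were not tested. Ordering levels without length kept 5 of 9 places. Ppargc1a lay between -0.45 and 1.02 with 1 library left out, turning to 1.02 without control replicate 2 and 0.90 without control replicate 2 and cold replicate 5. With cold replicates 3 and 4 left out, all genes gave 474 rising and 358 falling, from fewer samples; of the lists, 0 rose and 2 fell in breakdown, and 0 rose and 1 fell in transport and in the regulators. The globin values rest on 0 to 19 reads a library and say nothing about blood: the log2 ratio of Alas2 to globins differed by 0.21 (exact two-sided permutation p = 0.579), or -0.05 to 0.43 with 1 library left out. The covariates other than globin, and leaving out cold replicates 3 and 4, were chosen after seeing the data. Few reads limit Cpox, Hpx and the erythroid genes.

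The labels do not say that equal replicate numbers pair the mice. Of 5 same-numbered pairs 1 correlated best with its own number, which cannot settle whether the mice were paired. With a replicate block 2 of the 9 genes rose (Alas2 log2 0.89, adjusted p = 0.00548; Hmox1 1.19, 0.0142) and 1 fell (Ppox -0.44, 0.0315), and all genes gave 981 rising and 808 falling.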

Other observations

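The count table gave 50 of 20295 gene models a counted length under 20 bases, the 4 globin genes among them. Over all 10 libraries these 4 genes, with 20 counted bases together, held 63 reads.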
